A study of Mus musculus with 7 samples.

Results

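The transcripts described here are those of p53 (Trp53), of its inhibitors Mdm2 and Mdm4, and of the p53 target genes Cdkn1a, Ccng1, Sesn2, Trp53inp1, Zmat3 and Perp. The 9 genes were taken by symbol from a count table of 26586 symbols, and all 9 were present in it. Polyadenylated RNA was sequenced from 7 individual untreated mouse morulae (background strain C57BL/6) that had developed in vivo to 3 days post coitum. All 7 came from crosses between mice that each carried 1 mutant copy of L13a (Rpl13a, a protein of the large ribosomal subunit). They form 1 group with no reference group. Genotype, sex and litter are not in the labels, and the level of Rpl13a was not used to assign a genotype. An embryo is named here by its replicate number, 1 to 7.

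p53 is a transcription factor that halts the cell cycle or starts cell death when DNA is damaged or ribosome assembly is disturbed. Mdm2 is a ubiquitin ligase that binds p53 and sends it for degradation, and Mdm4 is its relative that binds p53 and blocks transcription. When ribosome assembly fails, free ribosomal proteins can bind Mdm2, and p53 then builds up as protein. Mouse embryos without Mdm2 or Mdm4 die early in development and are rescued when Trp53 is also removed. Because p53 is controlled mainly as a protein, the level of its messenger RNA does not give its activity.

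A p53 response element is made of a pair of 10-base half-sites. Promoter windows, running from 250 bases before to 50 bases after a transcript start, were read from RefSeq (GRCm38.p6), which held 8 windows for 6 of the 9 genes, all but Trp53inp1, Zmat3 and Perp. The p53 half-site consensus, which reads the same on both strands, was found in 1 window each of Cdkn1a, Ccng1, Trp53 and Mdm2. That is 4 of the 8 windows of these 6 genes, beside 8.36% of all 32851 windows. The 4 stretches that hold it are shown because Cdkn1a and Ccng1 are known p53 targets whose levels are given below. Each is written 5′ to 3′ on the gene's own strand, lies before the transcript start and has its half-sites in capitals.
Cdkn1a, chr17:29090859-29090978, plus strand: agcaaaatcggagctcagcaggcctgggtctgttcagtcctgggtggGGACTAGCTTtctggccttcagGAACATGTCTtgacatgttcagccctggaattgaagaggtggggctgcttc
Ccng1, chr11:40755407-40755526, minus strand: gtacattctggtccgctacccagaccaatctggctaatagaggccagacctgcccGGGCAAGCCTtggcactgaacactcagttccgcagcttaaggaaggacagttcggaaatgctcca
Trp53, chr11:69580229-69580348, plus strand: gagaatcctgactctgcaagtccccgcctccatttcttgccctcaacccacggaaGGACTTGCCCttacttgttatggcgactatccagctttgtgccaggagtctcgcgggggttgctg
Mdm2, chr10:117710880-117710999, minus strand: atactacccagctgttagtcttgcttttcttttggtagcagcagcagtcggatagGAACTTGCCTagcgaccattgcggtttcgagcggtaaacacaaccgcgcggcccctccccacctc
Another Cdkn1a window, around a different transcript start (chr17:29093519-29093818), held no half-site. The Cdkn1a stretch held half-sites at bases -73 and -51, counted from its own transcript start, a pair within the allowed 13-base spacing. Such a pair was present in 0.0731% of all windows. From base -51, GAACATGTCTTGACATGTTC differs at 1 base from 2 adjoining half-sites, and from base -195 of Ccng1, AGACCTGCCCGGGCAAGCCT also differs at 1. A 20-base match of that quality was present in 0.0883% of all windows. The half-sites of Trp53 and Mdm2 stood alone in their windows, and bases outside the windows were not searched. A match describes these letters and does not show that p53 binds there.

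Libraries were very unequal, and that limits each value that follows. Totals ran from 139619 counts in embryo 6 to 33123742 in embryo 4, so that 3 counts, the limit that a count of 0 allows, equal from 0.0906 to 21.5 CPM (counts scaled to a library total of 1000000). Intervals and limits cover counting error only, because the libraries carry no molecular identifiers and amplified copies are counted as reads. A fold given as at least sets a counted level over such a limit and leaves out the interval of the counted level. Markers of cell types were uneven too. The 6 trophectoderm markers summed to 3053 CPM in embryo 4, 280 CPM in embryo 5, 251 CPM in embryo 2 and at most 18.5 CPM in the other 4. All 6 had counts in embryo 4, while the sum in embryo 5 was Tfap2c alone (774 counts). That in embryo 2 was Tfap2c (124 CPM), Krt8 (89.2 CPM), Krt18 (37.1 CPM) and 13 counts of Gata3, with none of Cdx2 or Eomes. Cdx2 and Nanog were counted in embryo 4 alone. Nanog is 1 of 6 pluripotency markers, and each of the others was also counted elsewhere. All 6 had counts in embryo 4, 3 in each of embryos 2, 3 and 7, 1 in each of embryos 1 and 5 and none in embryo 6. Klf5, of the highest mean CPM among the 6, stood higher in embryo 3 (820 CPM) than in embryo 4 (480 CPM), while the others were highest in embryo 4. Markers of the mother's oviduct and uterine epithelium summed to 1153, 1721, 0, 45.7, 1.81, 4340 and 215 CPM in embryos 1 to 7. None of 7 cumulus and granulosa markers had a count in any embryo, and 6 blood and immune markers summed to 444 CPM in embryo 6 and at most 4.37 CPM elsewhere. A whole embryo holds several cells, and fewer cells expressing a gene cannot be told apart from less RNA per cell.

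Trp53 was counted in 3 embryos and was abundant in 2 of them. Its counts were 0, 2800, 0, 4140, 0, 0 and 54 in embryos 1 to 7. In CPM, embryo 2 stood at 170.2 (95% Poisson interval 164 to 177), embryo 4 at 125 (121 to 129) and embryo 7 at 3.15 (2.37 to 4.12), and none of these intervals overlap. Embryo 2 was thus 54.0-fold above embryo 7. A count of 0 allows up to 2.62 CPM in embryo 1, 4.13 CPM in embryo 3, 1.09 CPM in embryo 5 and 21.5 CPM in embryo 6. Against these limits, Trp53 in embryo 2 was at least 157-fold higher than in embryo 5, and at least 7.92-fold higher than in embryo 6. With every library thinned to the total of embryo 6, Trp53 kept 35 counts in embryo 2, 21 in embryo 4 and none in embryo 7. In GENCODE M21 (GRCm38), Trp53 spans 69580359 to 69591873 of chromosome 11, on the plus strand, with 6 transcripts. A processed pseudogene, Trp53-ps, lies on chromosome 17 from 54419680 to 54420841. Whether reads of Trp53 and Trp53-ps were split by the authors' counting was not determined.

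**Figure D1:**
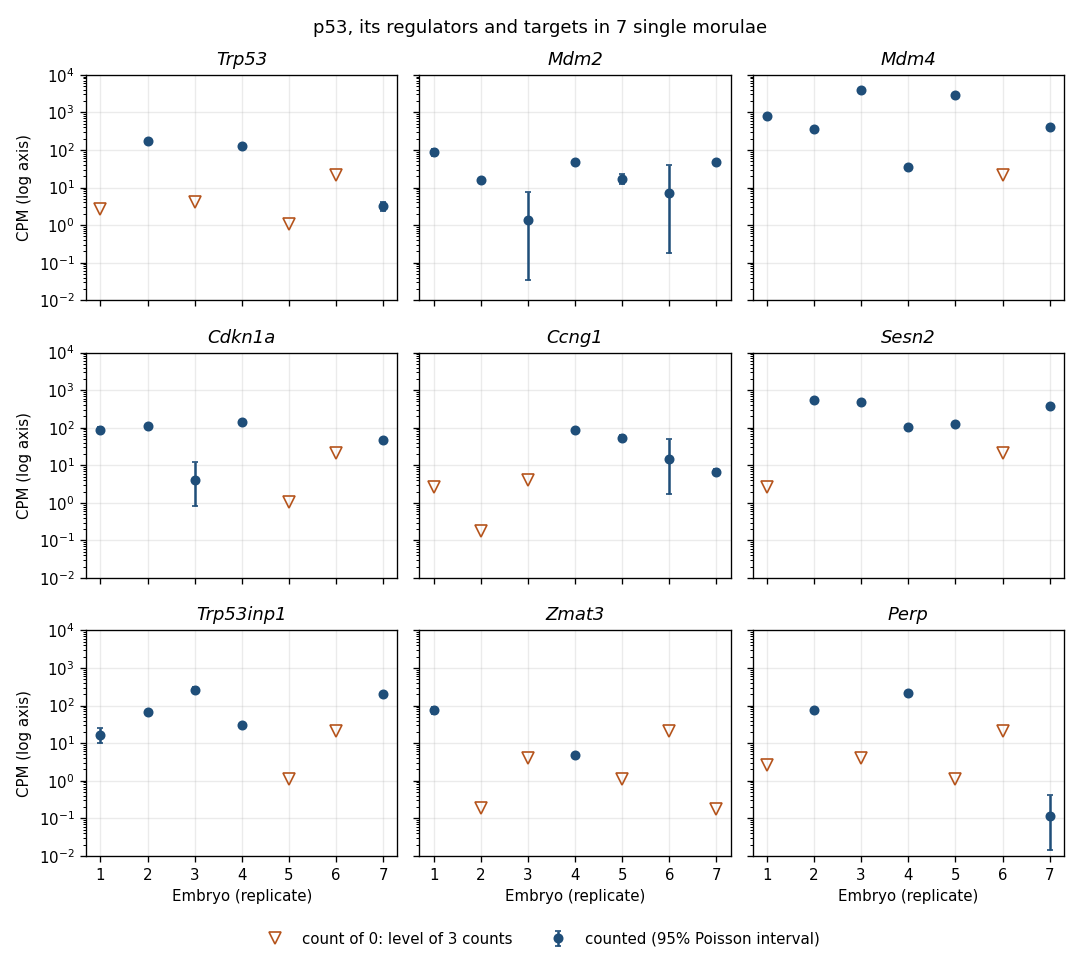
CPM (log axis) of each of the 9 genes in embryos 1 to 7. Filled points are counted values with 95% Poisson intervals, and open triangles mark embryos with a count of 0 at the level of 3 counts. Mdm2 is the gene with a filled point in all 7 embryos, while Trp53 and Perp have filled points in embryos 2, 4 and 7.

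Mdm2 alone of the 9 transcripts was counted in every embryo, and its SD of log2 CPM, given below, was the smallest of the 9. Its counts were 100, 265, 1, 1565, 47, 1 and 840 in embryos 1 to 7, which are 87.4, 16.1, 1.38, 47.2, 17.0, 7.16 and 49.1 CPM. Embryo 1 was the highest, 63.4-fold above embryo 3. Of the 9 genes, only Mdm4 and Perp had counted levels of a wider range. With every library thinned to the total of embryo 6, embryo 3 had no count of Mdm2. The intervals of embryos 7 and 4 overlap (45.8 to 52.5 and 44.9 to 49.6 CPM), and so do those of embryos 5 and 2, while the single counts of embryos 3 and 6 leave wide intervals, 0.0349 to 7.68 CPM and 0.181 to 39.9 CPM. It lies on chromosome 10 from 117688875 to 117710758 (minus strand). Mdm2 had 47 counts in embryo 5 and 100 counts in embryo 1, both with no count of Trp53. Of all 11810 genes with a mean of 1 CPM or more, 3.69% were counted in all 7 embryos.

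Mdm4 had the highest mean CPM of the 9, a mean raised by embryos 3 and 5. It had 937, 6021, 2889, 1170, 8067, 0 and 6885 counts in embryos 1 to 7, or 819, 366, 3981, 35.3, 2918, 0 and 402 CPM. Embryos 3 and 5 stood highest, and no intervals of neighbouring levels overlap. Embryo 4, with the largest library, had the lowest counted level, 113-fold below embryo 3. The oocyte markers, 10 genes, summed to 5403, 2882, 6733, 31.5, 28.2, 1110 and 8124 CPM in embryos 1 to 7, so they were high in embryo 3 and low in embryo 5, the 2 embryos with most Mdm4. Their part in the Mdm4 level was not tested. Mdm4 made up 75.4, 26.8, 83.9, 4.44, 93.7 and 37.1% of the counts of the 9 genes in embryos 1, 2, 3, 4, 5 and 7. Per length of exon, the ratio of Mdm4 to Mdm2 was 3.22, 7.80, 0.257, 59.0 and 2.82 in embryos 1, 2, 4, 5 and 7. Embryo 4 was thus the embryo of these 5 with more Mdm2 than Mdm4. The same ratio of Trp53 to Mdm2 was 13.3 in embryo 2, 3.32 in embryo 4 and 0.0808 in embryo 7. Mdm4 lies on chromosome 1 from 132959484 to 133030561 on the minus strand, and a processed pseudogene, Mdm4-ps, lies on chromosome X from 128261411 to 128267924. Sharing of reads between them was not determined.

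Cdkn1a encodes p21, the cyclin-dependent kinase inhibitor through which p53 arrests the cell cycle, and it was counted in 5 embryos. Its counts were 100, 1837, 3, 4661, 0, 0 and 805, or 87.4, 112, 4.13, 141, 0, 0 and 47.0 CPM in embryos 1 to 7. The embryos with most Trp53, 2 and 4, were also the highest for Cdkn1a. Embryo 1 came next, with an interval of 71.1 to 106 CPM and no count of Trp53. Embryo 5, with a limit of 1.09 CPM, was at least 130-fold below embryo 4. Cdkn1a lies on chromosome 17 from 29090976 to 29100727 on the plus strand, and 273 bases of its exons overlap a transcript of the opposite strand (AC167363.2). The kit used does not mark strand, so reads from that overlap cannot be told apart.

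Perp, a membrane protein of desmosomes and an effector of p53-induced death, was counted in the same 3 embryos as Trp53. It had 0, 1224, 0, 7155, 0, 0 and 2 counts in embryos 1 to 7, which is 74.4 CPM in embryo 2, 216 CPM in embryo 4 and 0.117 CPM in embryo 7 (0.0141 to 0.422). Embryo 4 stood above embryo 2, the reverse of their order for Trp53. Per length of exon, the ratio of Perp to Trp53 was 0.906 in embryo 2, 3.58 in embryo 4 and 0.0767 in embryo 7. Perp, on chromosome 10 from 18845020 to 18857073 (plus strand), is also an epithelial gene. The trophectoderm keratin Krt8 had 1468 counts in embryo 2, 42849 in embryo 4 and none in the others. Of the 3 embryos with the highest sums of oviduct and uterine markers, embryo 2 (1721 CPM) had counts of Perp, while embryos 1 (1153 CPM) and 6 (4340 CPM) had none, with limits of 2.62 and 21.5 CPM. In embryo 4, with most Perp, that sum was 45.7 CPM. The part of either cell type in the Perp level of embryos 2 and 4 was not tested.

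Sesn2 and Trp53inp1, which answer stress signals, reached their highest levels outside embryo 4. Sesn2, which restrains the growth kinase mTORC1, had 0, 9267, 356, 3529, 341, 0 and 6319 counts, or 0, 563, 491, 107, 123, 0 and 369 CPM in embryos 1 to 7. Its counted levels spanned 5.29-fold, the narrowest range among the 9 genes, and no intervals of neighbouring levels overlap. Embryo 1 had no count, which allows 2.62 CPM, so Sesn2 in embryo 2 was at least 215-fold higher. Trp53inp1, which promotes p53-dependent death and autophagy, had 19, 1088, 193, 1023, 0, 0 and 3558 counts, or 16.6, 66.1, 266, 30.9, 0, 0 and 208 CPM. Embryos 3 and 7 stood highest for it, with intervals of 229.7 to 306 and 201 to 215 CPM. Both genes are on chromosome 4, Sesn2 from 132492032 to 132510501 (minus strand) and Trp53inp1 from 11156431 to 11174379 (plus strand). Embryo 3 had no count of Trp53, so both of these targets were abundant where Trp53 was below 4.13 CPM.

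Ccng1 (cyclin G1, which brings a phosphatase to Mdm2) and Zmat3 (an RNA-binding zinc finger protein) were counted in other sets of embryos. They lie on chromosome 11 from 40748552 to 40755311 and on chromosome 3 from 32334792 to 32366014, both on the minus strand. Ccng1 had 0, 0, 0, 2942, 150, 2 and 116 counts, or 88.8, 54.3, 14.3 and 6.77 CPM in embryos 4 to 7. The intervals of embryos 5, 6 and 7 overlap where they are neighbours, because embryo 6 rests on 2 counts (1.73 to 51.7 CPM). In embryo 2, the embryo with most Trp53, Ccng1 was not counted, which allows 0.182 CPM and puts embryo 4 at least 487-fold higher. Zmat3 was counted in 2 embryos, with 87 counts (76.1 CPM, interval 60.9 to 93.8) in embryo 1 and 159 counts (4.80 CPM) in embryo 4. The 2 deep libraries of embryos 2 and 7 had no count of Zmat3, with limits of 0.182 and 0.175 CPM, so Zmat3 in embryo 1 was at least 434-fold higher than in embryo 7.

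Set side by side, the 9 genes were most completely counted in the deepest libraries. Of the 9, embryo 4 had all, embryo 7 had 8, embryo 2 had 7, embryos 1 and 3 had 5, embryo 5 had 4 and embryo 6 had 2. The shares of all 11810 genes counted were 84.0, 69.5, 72.1, 41.7, 29.0, 27.7 and 14.8% in embryos 4, 7, 2, 1, 3, 5 and 6, which is the same order except for embryos 7 and 2. Embryo 6 held 3 counts of the 9 genes in all, 1 of Mdm2 and 2 of Ccng1. After thinning to its total, embryo 4 still had all 9 and embryo 2 still had 7, while embryo 7 had 5 and embryo 3 had 3. The shares of all 11810 genes were then 69.2, 57.7, 55.5 and 23.9% in embryos 4, 2, 7 and 3. Thinning was a random draw that was not repeated. Some kept genes rest on few counts, such as Mdm4 on 1 in embryo 4 and Mdm2 on 2 in embryo 2.

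**Figure D2:**
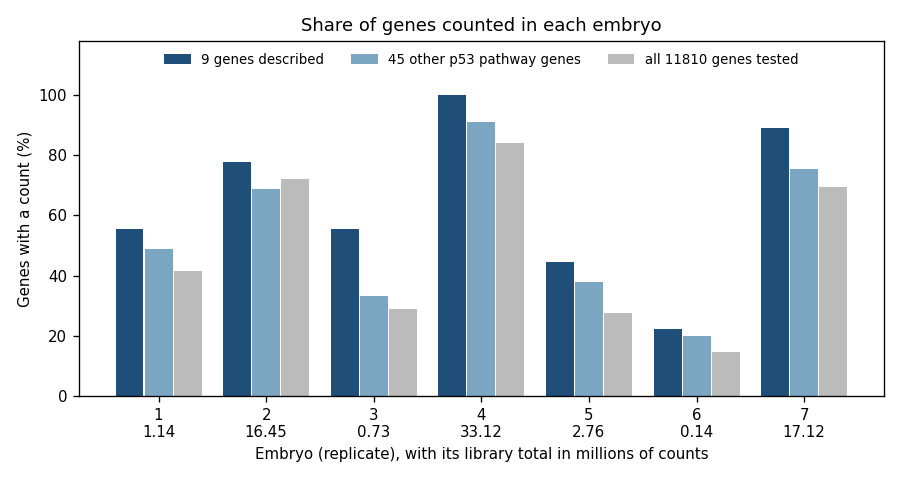
Percent of genes with at least 1 count in each embryo, for the 9 genes, for 45 other genes of the p53 pathway and for all 11810 genes with a mean of 1 CPM or more. Library totals stand under the replicate numbers, and the bars of all 3 sets are highest in embryo 4 and lowest in embryo 6.

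Levels of different genes can be compared only per length, and here CPM was divided by the length of all annotated exons in kb. On that scale the means were 82.3 ± 107 for Mdm4, 67.9 ± 67.5 for Sesn2, 21.3 ± 41.9 for Perp and 15.7 ± 16.4 CPM per kb for Cdkn1a (SD, n = 7). Trp53inp1 came next, followed by Trp53 at 10.5 ± 18.0, Ccng1 at 6.68 ± 9.89, Mdm2 at 6.33 ± 6.02 and Zmat3 at 1.01 ± 2.49 CPM per kb (SD, n = 7). No neighbours in this order differ by more than their spread. Mdm4 averaged 51.1 CPM per kb without embryo 3 and 63.1 without embryo 5, below Sesn2 at 55.7 and 73.4 in the same embryos, and the median over all 7 was 27.2 for Mdm4 and 35.5 for Sesn2. Single embryos also carried other means, which were 6.36 CPM per kb for Perp and 3.58 for Ccng1 without embryo 4, 5.28 for Trp53 without embryo 2, 8.27 for Trp53inp1 without embryo 3 and 0.0700 for Zmat3 without embryo 1. The leading gene changed from embryo to embryo. It was Mdm4 in embryos 1, 3 and 5 (55.4, 269 and 197 CPM per kb), Sesn2 in embryos 2 and 7 (162 and 106), Perp in embryo 4 (111) and Ccng1, on 2 counts, in embryo 6 (4.08).

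None of the 9 genes passed the test of spread between embryos, and Mdm2 had the smallest SD of log2 CPM among them. The SD of log2 CPM (TMM scaling, prior count 2) was 2.18 for Mdm2, 3.35 for Zmat3, 3.92 for Ccng1, 4.23 for Cdkn1a and 4.27 for Trp53inp1. It was 4.55 for Trp53, 4.58 for Perp, 4.80 for Mdm4 and 5.08 for Sesn2 (n = 7 each). Without embryo 6, the smallest library and the only 1 with no count of Mdm4, the SD of Mdm4 was 2.29. The median of the 9 SDs was 4.27, beside 3.63 over all genes tested, and 7 of the 9 lay above that value. Mdm2 had a larger SD than 5.83% of all genes and Sesn2 a larger SD than 95.5%. In the edgeR quasi-likelihood test of whether a gene's dispersion exceeds that of genes of like abundance, 0 of the 9 passed (adjusted p from 0.869 to 0.992), beside 0 of 11810 genes tested (0%). At an unadjusted p under 0.05 there were 0 of the 9 and 68 of all genes (0.576%), and DESeq2 gave 0 dispersion outliers. The common dispersion over the embryos was 9.02. With no litter named, the p-values cover only how these 7 libraries spread, part of which may be technical.

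**Figure D3:**
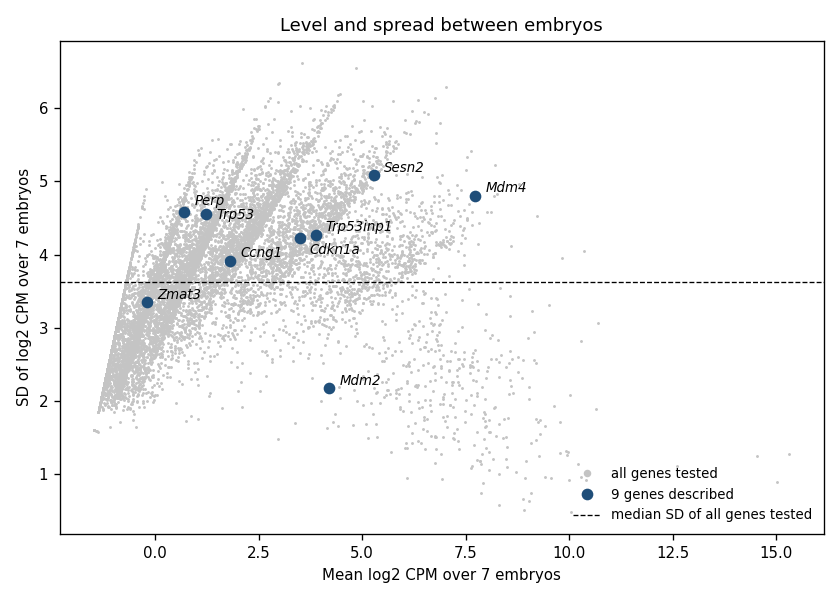
SD against mean of log2 CPM over the 7 embryos for each of 11810 genes (grey) and the 9 genes described (blue), with a dashed line at the median SD, 3.63. Mdm2 (2.18) and Zmat3 (3.35) lie below the line and the other 7 above it.

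Over the embryos, the pattern of Trp53 was most like that of Perp, and Ccng1 was like none of the others. Pearson's r of log2 CPM, given as a description over 7 embryos that differ in depth and share many counts of 0, was 0.957 between Trp53 and Perp. Cdkn1a was most like Trp53inp1 (0.772), Mdm2 most like Zmat3 (0.619) and Sesn2 most like Mdm4 (0.566). The highest r of Ccng1 was 0.278, with Mdm2. Trp53 was least like Mdm4 (-0.045). Among 5281 genes counted in at least 4 embryos, those most like Trp53 were Timm17a (0.986), Spen (0.985), Ccdc58 (0.978), Klf9 (0.978) and Arnt (0.977). Timm17a, a subunit of the mitochondrial import channel, stood at 0, 447, 0, 587, 0.362, 0 and 23.0 CPM in embryos 1 to 7, and so was high in embryos 2 and 4 and low in 7, as Trp53 was.

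The cross segregates a mutation of Rpl13a, and the only measure of that gene here is its own level. Rpl13a had 99, 1954, 4, 17558, 9, 1 and 403 counts in embryos 1 to 7. It stood at 6.40, 7.20, 2.26, 9.50, 2.05, 2.18 and 4.60 log2 CPM, and each gene was tested for a slope on it with the edgeR quasi-likelihood test. The levels of Rpl13a in embryos 3, 5 and 6 thus rest on few counts (0.181 to 39.9 CPM in embryo 6). Slopes and their SEs take these levels as exact. Perp had a slope of 2.34 ± 0.89 (SE) log2 units per log2 unit of Rpl13a (edgeR adjusted p 0.114), Trp53 2.03 ± 0.89 (0.166) and Zmat3 2.07 ± 1.31 (0.375). Cdkn1a had 1.17 ± 0.76, Mdm2 0.42 ± 0.65 and Mdm4 -0.58 ± 0.55, with edgeR adjusted p from 0.391 to 0.760. Ccng1 had 0.19 ± 0.42 and Trp53inp1 -0.11 ± 0.61, and Sesn2 had 0.10 ± 0.55, which turned to -0.09 with DESeq2 size factors and to -0.01 with the library total alone (edgeR adjusted p from 0.838 to 0.993). The slope of Ccng1 was -1.80 without embryo 4, and that of Trp53inp1 was 0.32 without embryo 3 and 0.0139 without embryo 1.

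In each direction 0 of the 9 passed, beside 0 of 11809 genes tested (0% higher and 0% lower with Rpl13a). At an unadjusted p under 0.05 there were 2 of the 9, Trp53 and Perp, beside 2167 genes of positive and 199 of negative slope. Of the 9, 7 had a positive slope (Sesn2 and Ccng1 among them, whose signs turn as given above), beside 75.9% of all genes, and the median slope was 0.42, beside 0.73 over all genes. DESeq2 called 362 of the 9291 genes to which it gave an adjusted p, and without embryo 7 edgeR called 1721, with none of the 9 among either. Depth moved with Rpl13a, since embryo 4 had both the largest library and the most Rpl13a, and its part in the slopes was not tested.

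**Figure D4:**
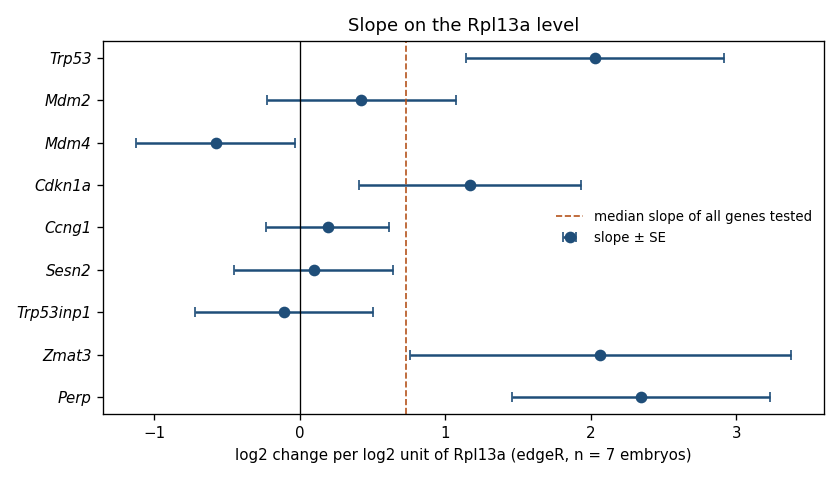
Slope of each of the 9 genes on the log2 CPM of Rpl13a, in log2 units per log2 unit, with its SE (edgeR, 7 embryos). The dashed line is the median slope of all genes tested, 0.73, and the slopes of Trp53, Zmat3 and Perp lie above 2 with wide errors.

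Other genes of the pathway were taken from 6 lists of 46 genes in all, of which 45 were in the table (all but Pidd1) and 41 had a mean of 1 CPM or more. None of the 41 passed the edgeR test of spread or the slope test in either direction, nor did any other gene tested. Of the 41, 32 had a positive slope, beside 75.9% of all genes, and their median SD was 3.64, beside 3.63 over all genes. Embryos 1 to 7 had counts of 22, 31, 15, 41, 17, 9 and 34 of the 45, beside 41.7, 72.1, 29.0, 84.0, 27.7, 14.8 and 69.5% of all 11810 genes.

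Of 14 upstream regulators and cofactors, Usp7 and Chek1 were counted in every embryo. Usp7, which removes ubiquitin from both p53 and Mdm2, had the highest mean, with 90, 3188, 5, 4343, 1689, 7 and 6629 counts in embryos 1 to 7, or 78.7, 194, 6.89, 131, 611, 50.1 and 387 CPM. Chek1, the DNA damage checkpoint kinase, had 1, 199, 64, 1954, 1651, 6 and 4531 counts and was highest in embryo 5, at 597 CPM. Both were high in embryo 5, which had no count of Trp53. Of the other p53 family members, Trp73 had 1279 counts (74.7 CPM) in embryo 7 and none elsewhere. Trp63 had 15 counts in embryo 7 and none elsewhere.

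Ribosomal proteins known to bind Mdm2 were unevenly spread. All 5 listed (Rpl5, Rpl11, Rpl23, Rpl26 and Rps7) had counts in embryos 2, 4, 5 and 7, and they summed to 64.7, 631, 887, 4106, 3922, 430 and 176 CPM in embryos 1 to 7. Rpl23 and Rps7 were counted in every embryo. Rps7 was at 28.0, 126, 64.8, 718, 1775, 93.1 and 81.6 CPM and Rpl23 at 30.6, 144, 79.9, 683, 668, 337 and 32.0 CPM. The sum was thus about as high in embryo 5, without a count of Trp53, as in embryo 4, with 125 CPM of Trp53. The median SD of the 5 was 5.10, beside 3.63 over all genes.

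Target genes outside the 9 were most completely counted in embryo 4. All 6 arrest and feedback targets, 9 of 10 death targets and all 8 repair and metabolism targets in the table had counts there. Embryo 4, the largest library, also had counts of 84.0% of all 11810 genes, more than any other embryo. Sfn (14-3-3 sigma, a cell cycle inhibitor that is also an epithelial gene) led the arrest targets, with 36.2, 639, 82.8 and 44.6 CPM in embryos 2, 4, 5 and 7 and no count in embryos 1, 3 and 6. Siva1, a promoter of cell death, led the death targets and was at 2511, 1348, 1944, 235, 0, 71.6 and 1364 CPM in embryos 1 to 7, lower in embryo 4 than in embryos 1, 2, 3 and 7. Rrm2b, a ribonucleotide reductase subunit for DNA repair, was at 678, 194, 125, 5.10, 0, 0 and 131 CPM, and was likewise low in embryo 4. Fas, the death receptor, had no count in any embryo. Bbc3 (Puma) and Phlda3, singled out after their values were seen, had 285 and 2355 counts in embryo 4 and none in the others. The median slopes on Rpl13a were 1.66 for the 9 death targets tested, 0.77 for 7 repair targets and 0.25 for 6 arrest targets, beside 0.73 over all genes. The median of the death targets, 1.66, is the slope of Bbc3. Bbc3 and Phlda3 passed the filter on embryo 4 alone, which also had the most Rpl13a, so their positive slopes were fixed in advance. No conclusion on death targets is drawn from this median.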

How the data were processed

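Libraries of single morulae were made with oligo-dT priming (SMART-Seq v4, then Nextera XT) after total RNA was normalized, per the labels' protocols. The authors used HISAT2 2.0.5, featureCounts 1.5.0-p2 of Subread, limma and build GRCm38, per the submitters' processing notes. For aligner settings, annotation and strand use, the sources used here give nothing. Raw whole-number read counts make up the deposited count table. The deposited log2 table, recomputed from the counts to within 4.97e-14, holds log2 CPM with a small offset after quantile normalization, and served as an alternative.

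Here CPM is the count over the library total, with exact 95% Poisson intervals. Log2 CPM used edgeR 4.0.16 (R 4.3.3) with TMM factors and a prior count of 2. Genes with a mean of 1 CPM or more were tested with Benjamini-Hochberg adjustment at 0.05 over all of them: a one-sided F test of quasi-dispersion for the spread, and a two-sided quasi-likelihood F test for the slope on Rpl13a. On simulated data both tests recovered most changes at a low dispersion and none at the dispersion of these embryos, so an absence of calls says little. DESeq2 1.42.0, other scalings, filters, thinning and leaving out embryos were alternatives. Positions and exon lengths come from GENCODE M21.

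Named genes were the 9, Rpl13a, in each list those counted in all 7 embryos and that of highest mean CPM, the most alike of the 9 for each, and the 5 genes most like Trp53 among those counted in at least 4 embryos. Trp63, Fas, Bbc3, Phlda3, Krt8, Krt18, Tfap2c, Gata3, Eomes, Cdx2 and Nanog were named after their values were seen. The 9 genes and all lists were chosen with earlier results of these data known.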

Additional observations from a re-analysis of the deposited data

How the results depend on the processing

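No paired analysis was possible because the labels give 1 group. The test of spread called 0 genes in every alternative run, with edgeR and DESeq2. The slope test on Rpl13a called 0 genes with other scalings and filters, 362 with DESeq2's Wald test, and from 0 to 1721 with each embryo left out in turn (3 without embryo 5, 1721 without embryo 7), and the cause was not tested. Zmat3 fell under the filter on low counts without embryo 1 and has no value there. Otherwise none of the 9 genes passed it in an alternative that was run (lowest adjusted p 0.0649, Perp with no filter on low counts). Slopes of Trp53, Mdm2, Mdm4, Cdkn1a, Zmat3 and Perp kept their sign wherever they were tested. That of Sesn2 reversed to -0.0899 with DESeq2 size factors, -0.0131 with the library total alone, -0.0206 without embryos 3 and 6 and -0.0404 with DESeq2's Wald test, and ran from -0.10 to 0.27 with embryos left out. With embryos left out, that of Ccng1 ran from -1.80 (without embryo 4) to 0.58 and that of Trp53inp1 from -0.23 to 0.32. The median SD of the 9 was 5.21 with a prior count of 0.5 and 3.75 to 4.67 with embryos left out (over 8 genes without embryo 1). The SD of Mdm4, 4.80, was 2.29 without embryo 6, and that of Mdm2, 2.18, was 0.83 without embryos 3 and 6 and 1.56 to 2.43 with each embryo left out. With each library thinned to the total of embryo 6, embryos 3 and 7 kept 3 and 5 of the 9 genes. At a count of 4 or more, embryos 3 and 6 had 3 and 0. With the longest transcript as gene length, Cdkn1a ranked above Perp and Mdm2 above Ccng1. With Rn45s, Rnr1, Rnr2 and Lars2 left out of the library totals, the highest CPM among the 9 genes was higher in every embryo, beyond counting error in 6 of 7 (3843 against 2918 CPM for Mdm4 in embryo 5). The per-length means without each embryo were added after seeing the data.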

Other observations

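In the authors' normalized log2 table, the embryo of the smallest library, embryo 6, stood highest for Mdm2 and for Ccng1, on 1 and 2 counts. Mdm2 was at 6.11 in embryo 6, from 1 count, and at 2.62 in embryo 4, from 1565 counts. It was at 3.38 in embryo 3, from 1 count, and at 1.41 in embryo 2, from 265 counts. Ccng1 was at 6.62 in embryo 6, from 2 counts, and at 4.65 in embryo 4, from 2942 counts. In CPM over the library total, embryo 4 was above embryo 6 for both genes, at 47.2 against 7.16 CPM for Mdm2 and 88.8 against 14.3 CPM for Ccng1. The intervals in embryo 6, from 0.181 to 39.9 CPM and from 1.73 to 51.7 CPM, lay below those of embryo 4.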
